A study of Mus musculus with 42 samples.

Results

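The 9 genes described here are transcription factors that cells switch on quickly after a stimulus: Egr1, Egr2 and Egr3 of the early growth response family, Nr4a1, Nr4a2 and Nr4a3 of the NR4A orphan nuclear receptor family, and Klf2, Klf4 and Klf6 of the Krüppel-like family. They were taken by symbol from the RNA-seq gene tables, where they make up 9 of 24466 symbols, and every one of them was listed. The set was chosen by its RNA counts in these libraries, as differences between the 3 groups, so the RNA values of its members are given as a description and carry no test. RNA-seq was available for 3 groups. iPax7 cells came from a mouse embryonic stem cell line with a Pax7 gene that doxycycline switches on, driven to the myogenic precursor state. The +Dox group (3 libraries) was cultured with serum, FGF and 0.75 µg/ml doxycycline, which keeps the Pax7 transgene on. The -Dox group (2 libraries) was kept in the same serum and FGF, without doxycycline, for 3 days. Satellite cells (3 libraries), the resident stem cells of skeletal muscle, were isolated by means of a Pax7-ZsGreen reporter strain (fresh sorting is stated for the ATAC-seq cells) and are labelled in vivo; the labels name no transgene beyond the reporter for them and no culture step. ATAC-seq peaks, histone mark regions and Pax7 binding sites of the same series were used to describe the promoters. The ATAC-seq sets also covered iPax7 cells 12 h and 24 h after withdrawal, and iPax7 and C2C12 myotubes, both labelled with 2% horse serum. Further sets came from myoblasts of the mouse line C2C12, as such, with a flag control or with flag-tagged Pax7. The age, sex and number of the mice are not given in the sources used here.

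Genes of the EGR, NR4A and KLF families belong to the immediate-early response: their promoters are held ready and are transcribed within minutes of a signal such as serum, growth factors, cyclic AMP or mechanical stress, without need of new protein synthesis, and their messenger RNAs are short-lived. EGR and KLF proteins bind GC-rich DNA through C2H2 zinc fingers, whereas NR4A proteins are nuclear receptors that act without a known hormone and bind a site called NBRE. In muscle, the same genes are known to be induced by exercise and injury, and immediate-early RNA is also known to rise while cells are taken out of a tissue.

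Between 39010958 and 54674619 reads were counted on genes in each library. The 9 members together took between 0.00744% and 0.0167% of the counts in the 5 iPax7 libraries and 0.878%, 0.474% and 0.610% in satellite libraries 1, 2 and 3. The Pax7 transcript itself, which checks the labels, was at 11610 to 14130 normalized counts in the +Dox libraries, 221 and 269.5 in the -Dox libraries and 3926 to 8504 in satellite cells. Normalized counts are reads divided by a library's size after TMM scaling (a correction for composition) and brought to a common size, so that 1 unit is about 1 read of a typical library. The satellite libraries also differed from the iPax7 libraries in that 23.6% to 30.7% of their alignments were not unique, against 7.11% to 7.60%. Cell source and library preparation cannot be told apart in the comparisons with satellite cells, and in bulk RNA fewer cells of a type and less RNA per cell cannot be told apart either. The labels do not say whether libraries of a group came from separate cultures or animals, so the p-values below measure only the spread between these libraries, which may be technical.

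Egr1, the founding member of its family and a serum-induced activator, was the most abundant member per length in satellite cells. Its normalized counts were 2366, 1867 and 1531 in +Dox libraries 1 to 3, 1013 and 845.5 in the -Dox libraries, and 223194, 122739 and 217498 in satellite libraries 1 to 3. The groups did not overlap: the lowest satellite library lay 51.9 times above the highest +Dox library, and the lowest +Dox library 1.51 times above the highest -Dox library. Group means were 1921 ± 420 (SD, n = 3), 929 ± 118 (n = 2) and 187810 ± 56425 (n = 3). The log2 fold change was -1.05 (SE 0.329) for -Dox against +Dox, -6.61 (SE 0.362) for +Dox against satellite cells and -7.66 (SE 0.459) for -Dox against satellite cells.

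Egr2, known for its part in hindbrain patterning and Schwann cell myelination, read 445, 309 and 201 normalized counts in the +Dox libraries, 116 and 359 in the -Dox libraries, and 44141, 17631 and 17488 in satellite cells. The iPax7 groups overlapped, since 1 -Dox library lay below and the other between the +Dox values, and their difference (log2 -0.42, SE 0.579) was smaller than its error. Without -Dox replicate 1, the lower of the -Dox libraries, it turned to 0.17. Satellite cells stood apart from both, at a log2 fold change of -6.37 (SE 0.638) for +Dox and -6.80 (SE 0.785) for -Dox against them.

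Egr3, which is needed for muscle spindle development, gave 307, 93.3 and 178.5 normalized counts in the +Dox libraries, 122 and 133 in the -Dox libraries, and 6698, 3143 and 5450 in satellite cells. Both -Dox values fell inside the +Dox range, which itself spanned 3.29 times. Its distance from satellite cells was the smallest of the Egr genes, at -4.72 (SE 0.514) for +Dox and -5.32 (SE 0.636) for -Dox.

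Nr4a1, also called Nur77, showed a low but clear +Dox level of 154, 85.9 and 135 normalized counts, against 34.0 and 12.9 in the -Dox libraries. Satellite cells held 89016, 29555 and 42594, with library 1 at 3.01 times library 2. None of the 3 groups overlapped, and the log2 fold change was -2.41 (SE 0.593) for -Dox against +Dox, -8.75 (SE 0.626) for +Dox against satellite cells and -11.15 (SE 0.842) for -Dox against satellite cells.

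Nr4a2, also called Nurr1 and known for its role in dopamine neurons, had the largest fall after doxycycline withdrawal among the members. It read 65.4, 110 and 65.6 normalized counts in the +Dox libraries and 1.84 and 0.923 in the -Dox libraries, that is 87, 149 and 72 reads against 2 reads and 1 read. The +Dox to -Dox ratio of pooled counts was 59.0 with a 95% interval of 20.0 to 287.6 (exact Clopper-Pearson, covering counting error only, as do the other intervals of this kind), and the fitted log2 fold change was -5.75 (SE 0.690). Satellite cells held 1468, 2907 and 3027 normalized counts, above both iPax7 groups, at -4.94 (SE 0.469) for +Dox and a pooled satellite to -Dox ratio of 1784 (95% interval 610 to 8652).

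Nr4a3, also called Nor1, was close to undetected in iPax7 cells and passed the filter on low counts only through satellite cells. It had 1, 1 and 0 reads in the +Dox libraries and 1 and 0 reads in the -Dox libraries, too few for any comparison of the iPax7 groups, against 1738, 982 and 2949 reads in satellite cells. The pooled ratio of satellite cells to +Dox was 4733 (95% interval 1309.5 to 39088) and that of satellite cells to -Dox was 5438 (95% interval 975.5 to 214809), and the width of both intervals comes from the 2 reads and 1 read in the denominators. In satellite cells the normalized counts were 2288, 1316 and 3889, and per kb of exon the libraries of Nr4a3 (220 to 649.6) overlapped those of Nr4a2 (362 to 746).

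Klf2, a factor best known from endothelial cells and quiescent lymphocytes, was the only member that was higher after doxycycline withdrawal with no overlap. It had 1, 4 and 2 reads in the +Dox libraries and 22 and 53 reads in the -Dox libraries, which is 0.751, 2.96 and 1.82 against 20.2 and 48.9 normalized counts. The log2 fold change was 4.14 (SE 0.843), and the pooled +Dox to -Dox ratio of 0.0536 had a 95% counting interval of 0.0208 to 0.116. Satellite cells held 553, 335 and 1015.5 normalized counts, the lowest level of all members per length in that group, but still at -8.33 (SE 0.934) for +Dox and -4.19 (SE 0.896) for -Dox against them.

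Klf4, one of the pluripotency reprogramming factors and an inhibitor of proliferation in many epithelia, read 248, 282 and 197 normalized counts in the +Dox libraries, 116 and 89.5 in the -Dox libraries and 9036, 8518 and 22777 in satellite cells. No groups overlapped: the log2 fold change was -1.24 (SE 0.462) between the iPax7 groups, and -5.79 (SE 0.477) and -7.03 (SE 0.611) against satellite cells. Klf6 is a broadly expressed zinc finger factor. It read 2982, 3871 and 1117 normalized counts in the +Dox libraries and 2188 and 3336 in the -Dox libraries, which overlap, and 74508, 63406 and 38467 in satellite cells. Its iPax7 difference of 0.06 (SE 0.486) changed sign to -0.31 without +Dox replicate 3, the low library, and to -0.26 without -Dox replicate 2, the high one of its group, whereas the satellite differences were -4.47 (SE 0.502) and -4.41 (SE 0.597).

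**Figure D1:**
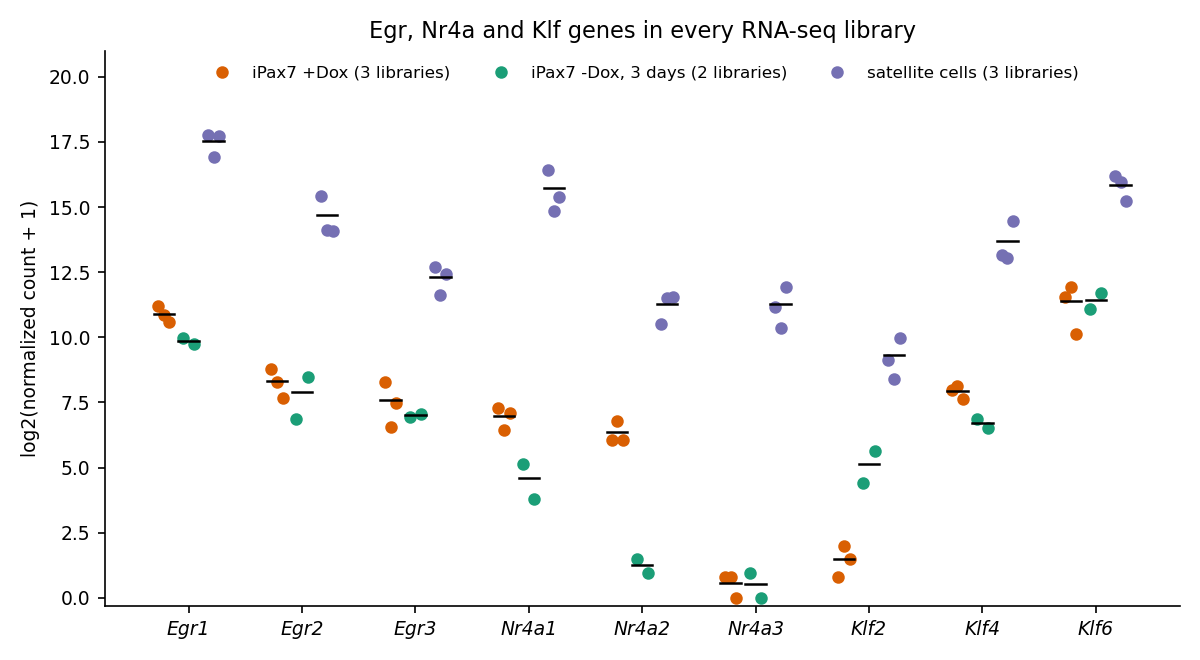
Log2 of normalized counts plus 1 of the 9 members in each of the 8 RNA-seq libraries. Each point is 1 library, and a bar marks the log2 of the group's mean normalized count plus 1. Every member's satellite libraries lie above all of its iPax7 libraries, and between the iPax7 groups Nr4a1 and Nr4a2 are lower and Klf2 higher in -Dox.

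In the comparison of -Dox with +Dox, 2 members (Nr4a1 and Nr4a2) met the call rule, an adjusted p under 0.05 in the quasi-likelihood test of edgeR (Benjamini-Hochberg over 14836 tested genes) and a change of at least 2-fold, in the lower direction, where 3.01% of all genes tested did. Klf2 met it in the higher direction, where 4.63% did. Libraries did not overlap for 1 member higher and 4 lower in -Dox, against 22.7% of all genes in each direction. All 9 members met the rule as lower in +Dox than in satellite cells, beside 23.9% of all genes, and all 9 as lower in -Dox than in satellite cells, beside 20.4%. Libraries did not overlap for all 9 in either comparison, where 30.2% and 33.7% of all genes were lower, and 26.3% and 30.6% higher, with no overlap. Since the choice of members used these contrasts, nothing is read from these counts. The 2 satellite comparisons share the satellite libraries. The median log2 fold change over the members was -0.60 for -Dox against +Dox (-0.82 without Nr4a3), -6.37 for +Dox against satellite cells (-6.08) and -7.03 for -Dox against satellite cells (-6.91). Over all genes tested the medians were -0.005, -0.17 and -0.23.

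**Figure D2:**
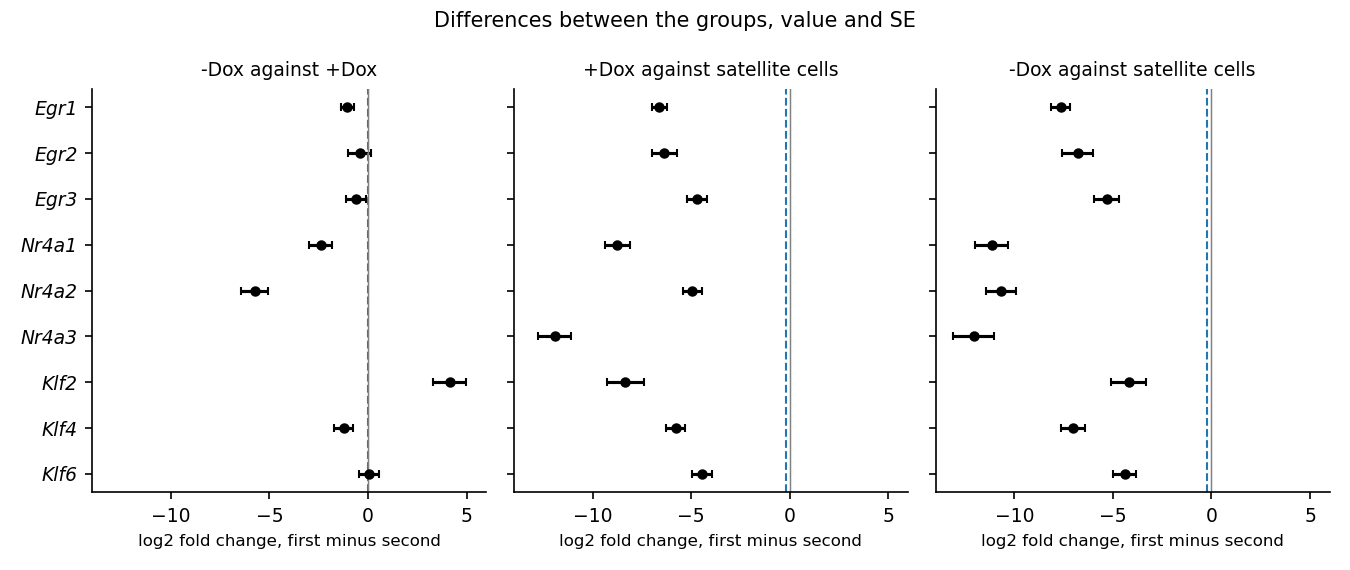
Fitted log2 fold changes of the 9 members in the 3 comparisons, each point 1 gene with a line of 1 SE on either side and a dashed line at the median of all genes tested. The satellite comparisons run from -4.47 to -11.92 for +Dox and from -4.19 to -12.07 for -Dox, while the -Dox against +Dox values lie on both sides of 0, and Nr4a3, with 3 reads in all 5 iPax7 libraries, is left out of that panel.

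The order of the members differed between the groups when levels were divided by the exon length of each gene. In +Dox cells Klf6 (630 ± 333 normalized counts per kb, SD, n = 3) and Egr1 (620 ± 136) led and overlapped, Egr3, Egr2 and Klf4 followed between 131 and 79.2 per kb and each overlapped its neighbour, and Nr4a1 (50.5), Nr4a2 (19.8), Klf2 (0.999) and Nr4a3 (0.0831) came last, each apart from the next. In -Dox cells Klf6 (655 per kb) and Egr1 (299.7) led without overlap, and Klf2 (18.7) stood above Nr4a1 (9.48) and Nr4a2 (0.340), though Klf2 and Nr4a1 overlapped. In satellite cells Egr1 led at 60584 ± 18202 per kb, which was place 28 to 58 among 20478 genes in the single libraries. Nr4a1, place 6 of the 9 in +Dox cells, came next at 21715 per kb (place 77 to 228), overlapping Klf6 at 13942 (place 158 to 365). Egr2 (7775), Klf4 (4393) and Egr3 (3470) each overlapped their neighbour, and Nr4a2 (608), Nr4a3 (417) and Klf2 (343.5) overlapped each other at the low end. The order was the same when the longest transcript was used as the length.

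Within a group, the members did not all move together from library to library. Satellite library 2 was the lowest of the 3 for 6 of the 9 members, library 1 the highest for 5 and library 3 the highest for 4. Nr4a2 ran against most others, with its lowest value in library 1, where Egr1, Egr2, Egr3, Nr4a1 and Klf6 were at their highest. In +Dox cells, replicate 3 was the lowest for 5 members and the highest for none. The widest spreads between replicates were 3.94 times for Klf2 in +Dox cells, where it rests on 1 to 4 reads, 3.46 times for Klf6 and 3.29 times for Egr3 in +Dox cells, 3.10 times for Egr2 in -Dox cells and 3.03 times for Klf2 in satellite cells.

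A list of 48 other immediate-early genes, none of them a member, was read from the same fit. This list and the gene lists below were chosen with earlier results of these data known. Their counts and adjusted p-values therefore describe these libraries and are no independent test. In +Dox cells 45 of the 48 were lower than in satellite cells and none was higher (edgeR, with 23.9% of all genes lower and 18.2% higher), with a median log2 fold change of -4.71. In -Dox cells 43 were lower and none was higher (20.4% and 17.2% of all genes), with a median of -4.56. Fosb, a partner of Jun proteins in the AP-1 factor, showed the largest difference, with 2.25 to 24.4 normalized counts in +Dox, 5.54 and 22.1 in -Dox and 47695 to 75326 in satellite cells, a log2 fold change of -12.33 (SE 0.884, adjusted p = 1.512e-05) for +Dox against satellite cells. Fos, the best known immediate-early gene, ranged from 311 to 558 in +Dox and from 158623 to 425653 in satellite cells (-9.41, SE 0.564, adjusted p = 7.751e-06), and Junb was at 9.19 and 42.5 in -Dox against 4628 to 20101 (-8.67, SE 1.28, adjusted p = 0.000797). The groups of these 3 genes did not overlap.

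Between the iPax7 groups the same list gave 6 genes higher and 1 lower in -Dox, where 4.63% and 3.01% of all genes tested were called, and a median of -0.05. Atf3, a stress-induced factor of the CREB/ATF family, went from 6.76 to 54.8 normalized counts in the +Dox libraries to 1312 and 1401.5 in the -Dox libraries (log2 fold change 5.84, SE 0.840, adjusted p = 0.002945). Sik1, a salt-inducible kinase that restrains CREB coactivators, went from 41.5 to 99.3 up to 507 and 587 (2.99, SE 0.446, adjusted p = 0.003543), and neither call was lost on leaving out any library. Bhlhe40, a basic helix-loop-helix repressor, was higher at 2.09 (SE 0.478, adjusted p = 0.02857) but lost its call without +Dox replicate 2, +Dox replicate 3 or either -Dox library. The other 3 higher genes were Fosl2 (1.54, adjusted p = 0.01018), Rhob (1.91, adjusted p = 0.006594) and Gadd45a (1.58, adjusted p = 0.04929), and the lower gene was Fosl1, another AP-1 subunit, at -3.70 (SE 0.859, adjusted p = 0.03072); these 4 were named after their values were seen. The count of 7 fell to 4 without +Dox replicate 2, to 2 without -Dox replicate 1 and to 3 without -Dox replicate 2. Fos, Fosb and Junb, in contrast, were not called between the iPax7 groups, with log2 fold changes of -0.05, 0.16 and -1.83.

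**Figure D3:**
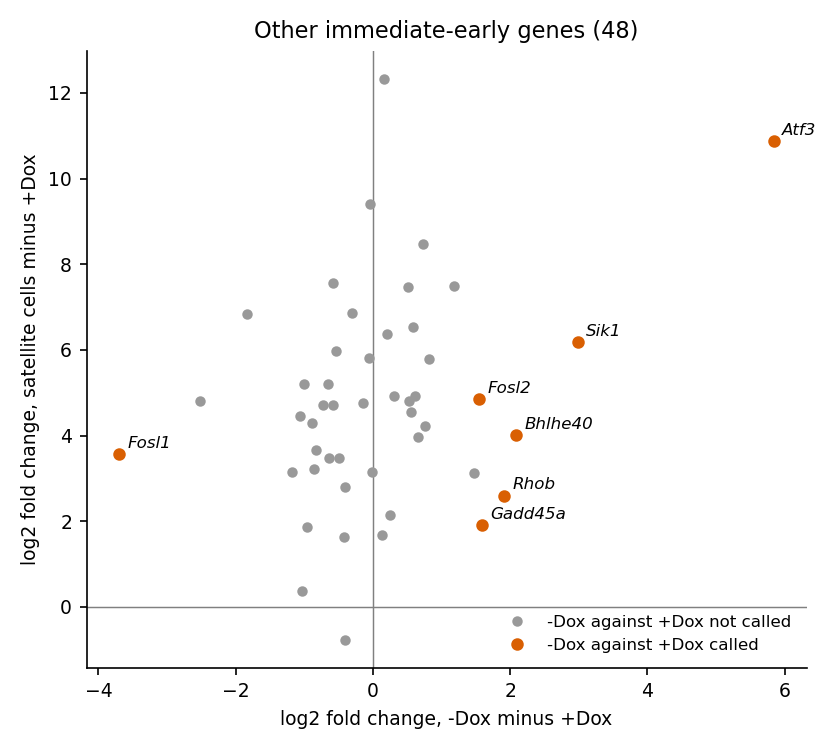
Each of the 48 other immediate-early genes by its log2 fold change of -Dox minus +Dox (x axis) and of satellite cells minus +Dox (y axis), with genes called in -Dox against +Dox marked. Of the 48 genes 47 lie above 0 on the y axis while the x values are spread around 0, with Atf3 at 5.84 and Fosl1 at -3.70 at the ends.

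The factors that switch immediate-early promoters on were compared in the same way. In +Dox 23.9% of all genes tested were called lower and 18.2% higher than in satellite cells, and 20.4% and 17.2% in -Dox. Of SRF and its cofactors, 6 of 8 genes were listed and tested. In +Dox 2 of the 6 were called lower and 0 higher than in satellite cells, with a median log2 fold change of -0.31. In -Dox 2 were called lower and 1 higher, with a median of -0.36. Srf, which binds CArG boxes, was lower in +Dox (-2.40, SE 0.311, adjusted p = 0.000326) and in -Dox cells (-2.66, adjusted p = 0.000578) than in satellite cells, and so was its partner Elk4 (-3.82 and -4.68). Mkl2, a myocardin-related coactivator, was the gene called higher in -Dox than in satellite cells (1.52). It was also higher in -Dox than in +Dox (1.08, SE 0.274, adjusted p = 0.0433), a call that was lost without any 1 of the 5 iPax7 libraries. Of 8 CREB factors and coactivators, 6 were lower than in satellite cells in each iPax7 group, among them Crem (-3.44 and -3.29), Crtc2 (-2.75 and -2.98) and Crebbp (-2.47 and -2.02), and none was called between the iPax7 groups. Crtc1 was lower in -Dox (-2.38, adjusted p = 0.0141) and kept that direction, but lost the call, when either -Dox library was left out. Of 5 partners and corepressors, Nab1, which represses through EGR proteins, was lower than in satellite cells (-2.18 and -2.21), and Rxrg, a retinoid X receptor that can pair with NR4A proteins, was higher (4.06, adjusted p = 0.01605, and 5.47, adjusted p = 0.007133).

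By sign, most of the remaining Krüppel-like genes tested were also lower in iPax7 cells than in satellite cells. Of 16 listed Krüppel-like and Egr-type genes 12 were tested, all of them Krüppel-like. In each iPax7 group 6 were called lower and 1 higher than in satellite cells. In +Dox 23.9% of all genes were called lower and 18.2% higher, and in -Dox 20.4% and 17.2%. By sign 10 of the 12 were lower in each group, with median log2 fold changes of -2.16 in +Dox and -3.12 in -Dox. Klf9 had 47.4 to 145 normalized counts in +Dox and 236 and 317.5 in -Dox against 6831 to 15829 in satellite cells (-6.79 and -5.31, adjusted p = 2.965e-05 and 0.0002386), and Klf7 was at -3.73 and -4.29. Klf8, named after its values were seen, had no reads in the -Dox libraries against 22.4 to 97.4 normalized counts in satellite cells and was called lower in -Dox (adjusted p = 0.04271), but not in +Dox (adjusted p = 0.4078). Klf11 was at -3.13 in -Dox (adjusted p = 0.006846), a call that was lost without -Dox replicate 1. Klf12 was at -3.86 (adjusted p = 0.04584) in +Dox and -3.73 (adjusted p = 0.09598) in -Dox, and the +Dox call was lost when +Dox replicate 2 or 3, or any satellite library, was left out. Klf5, which drives proliferation in several tissues, was higher in iPax7 cells, with 767 to 906 in +Dox, 652.5 and 1016 in -Dox and 105 to 282 in satellite cells (2.08, adjusted p = 0.005734, and 2.06, adjusted p = 0.009419, the latter lost without -Dox replicate 2). None of the 12 was called between -Dox and +Dox.

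The MAP kinase phosphatases, which end the kinase signal that induces immediate-early genes, split into both directions. Of 10 tested, 4 were called higher and 5 lower in +Dox than in satellite cells, where 18.2% and 23.9% of all genes were. In -Dox 1 was higher and 4 lower, where 17.2% and 20.4% of all genes were. Dusp8 (-9.14, SE 0.963, adjusted p = 0.000113), Dusp1 (-6.14, SE 0.403, adjusted p = 1.058e-05) and Dusp10 (-3.15) were lower, while Dusp9 (5.39, adjusted p = 0.007976), Dusp4 (2.93, adjusted p = 0.02509) and Dusp7 (1.68, adjusted p = 0.04377) were higher, of which Dusp4 was lost in 3 and Dusp7 in 7 of the 8 fits that leave out 1 library. Dusp1, itself an immediate-early gene, and Dusp8 were also higher in -Dox than in +Dox, at 1.85 (SE 0.360, adjusted p = 0.0137) and 4.63 (SE 0.827, adjusted p = 0.008878), and the Dusp1 call was lost without +Dox replicate 1, +Dox replicate 2 or either -Dox library.

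Markers of other cell types moved with the satellite comparison. In +Dox cells, 10 of 10 endothelial markers, 7 of 8 fibroblast markers, 6 of 7 tested blood markers, 6 of 7 pericyte markers and 4 of 4 Schwann cell markers were lower than in satellite cells, where 23.9% of all genes tested were. In -Dox cells the counts were 10, 7, 6, 5 and 2 in the same order, where 20.4% of all genes were lower, and the pericyte marker Acta2 was higher. The summed endothelial markers ranged from 458 to 1101 normalized counts in +Dox, from 180 to 269.5 in -Dox and from 22889 to 30146 in satellite cells, and Cdh5, Kdr and Cldn5 had no reads in +Dox. The summed blood markers ranged from 270.5 to 523.5, from 243.5 to 433 and from 4527 to 15425, with Ptprc and Cd3e at 0 in both iPax7 groups and the hemoglobin genes Hbb-b1 and Hba-a1 at 0 in every library. The fibroblast sums were 32038 to 33635, 10133 to 15636 and 182402 to 404855, the pericyte sums 3592 to 7635, 54587 to 55063 and 33599 to 50545, and the Schwann cell sums 301 to 527, 184 to 213 and 6959 to 10077. Gsn was the largest part of the fibroblast sum in +Dox, at a mean of 25059. Acta2, a smooth muscle actin, carried the pericyte sum in -Dox, at a mean of 53915, while Rgs5 (log2 -8.22) and Notch3 (-4.66) were lower there than in satellite cells. The satellite cell markers summed to 189720 to 267469, 52797 to 55831 and 763996 to 1139894. Of the 12, 10 were called lower and Pax7 higher (log2 1.11) in +Dox than in satellite cells, and 12 lower in -Dox. Calcr was at a mean of 0.854 and 3.68 in the iPax7 groups and 12334 in satellite cells. Myf5 was not called in +Dox (log2 0.23). The largest part of the sum was Sdc4 in satellite cells (mean 654640) and Myf5 in +Dox (mean 143916). Among myofiber markers, 6 of 6 were higher in -Dox than in +Dox, where 4.63% of all genes were. Their sums were 1529200 and 1624133 against 4234 to 4427. The part of these cell types in the levels of the members was not tested. A sort on the Pax7 reporter would remove cells of these types. Endothelial cells are known to express Klf2 and Schwann cells Egr2. Among the satellite libraries, library 2 had the highest endothelial and the highest Schwann cell sum, while Klf2 was at its lowest there and Egr2 was highest in library 1.

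The 10 genes below were the closest of the whole table to the mean profile of the members, by Pearson r of log2 normalized counts over the 8 libraries among 12316 candidates. They were Thbs4 (0.998), Wsb1, Sidt2, Nfia, Prpf39, Serping1, Ripk1, Zbtb7a, Sdc4 and Sim2 (0.996 for the last), and 172 genes in all had r above 0.99. The 8 libraries fall into groups that differ in cell source, so such a likeness is shared by many genes that differ between iPax7 and satellite cells. Thbs4 had 0.998, 0 and 2236 normalized counts on average in +Dox, -Dox and satellite cells, and Sdc4, a satellite cell marker, had 45891, 30063 and 654640.

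The promoters of all members were accessible in every condition, also where the gene had next to no RNA. ATAC-seq marks open chromatin by transposase insertion, and 1 merged peak set per condition was available, so no test was possible. A peak overlapped the window of 1000 bp on either side of the start site of all 9 members in all 10 peak sets, which cover +Dox cells, 12 h, 24 h and 3 days after withdrawal, iPax7 myotubes, satellite cells and 4 sets from C2C12, a mouse myoblast line. Among 18857 protein-coding genes the share with such a peak was 63.9% in +Dox, 62% at 12 h, 65.3% at 24 h, 66.5% at 3 days, 62.8% in iPax7 myotubes and 59.6% in satellite cells, and in the C2C12 sets 45.2% (myoblasts), 56.4% (flag control), 57.3% (flag-tagged Pax7) and 54.7% (myotubes). Nr4a3 and Klf2, with no more than 7 reads over the 3 +Dox libraries, had promoter peaks of 28.7 and 54.1-fold enrichment in +Dox cells, the latter above 84.8% of all genes with a promoter peak. Of 6732 genes with so few reads in +Dox, 19.7% had an ATAC-seq peak at the start site, 14.5% had H3K4me3 and 11.6% had both.

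Because fold enrichment depends on the depth of each peak set, members were placed among all promoter peaks of the same set. Klf6 was the highest member in 9 of 10 sets, all but C2C12 myoblasts with flag-tagged Pax7, above 93.8% of promoter peaks in +Dox and 98.96% in satellite cells. Nr4a2, whose RNA was 59.0 times lower after withdrawal, moved up rather than down in place, from above 73.0% of promoter peaks in +Dox to 81.9% at 12 h, 88.2% at 24 h and 90.4% at 3 days, with 39.2-fold enrichment in +Dox and 65.8-fold at 3 days. Nr4a1 lay above 64.7%, 59.4%, 69.0% and 66.4% of peaks in the same order, and Egr1 above 80.6%, 70.6%, 71.4% and 65.1%. In satellite cells, where the RNA of every member was highest, Nr4a1 lay above 65.3%, Egr1 above 84.1%, Egr2 above 80.8% and Egr3 above 46.7%. With 1 set per condition these places have no error estimate.

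**Figure D4:**
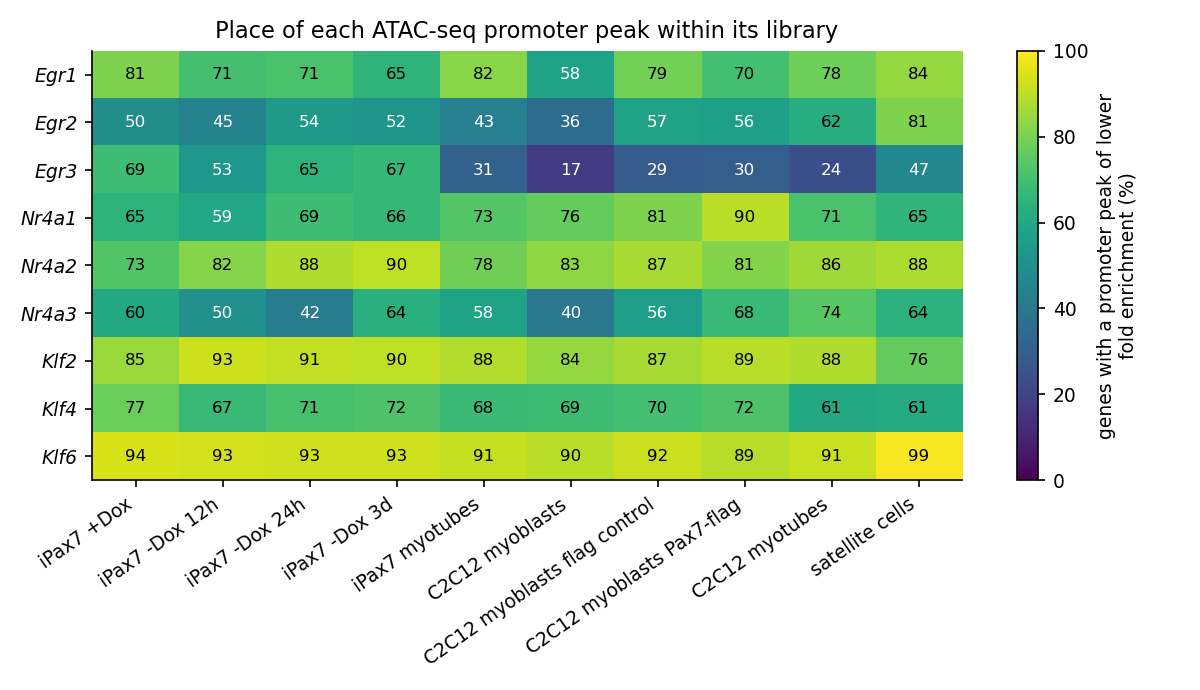
Place of each member's ATAC-seq promoter peak within its own peak set, as the percent of genes with a promoter peak of lower fold enrichment, for 9 members (rows) and 10 peak sets (columns). Every cell is filled, since every member has a peak in every set, and Klf6 is at 93.8% in +Dox and 98.96% in satellite cells while Egr3 in C2C12 myoblasts is at 17.3%.

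Histone marks were available for iPax7 +Dox and -Dox at 3 days, 1 merged set of regions each. H3K4me3, a mark of active and poised promoters, lay at all 9 members in both (62.1% and 67.8% of all genes), and so did H3K4me1 (63.2% and 66.3%). H3K27Ac, a mark of active promoters and enhancers, lay at 8 members in +Dox, all but Klf2, and at 7 in -Dox, all but Klf2 and Nr4a3 (49.1% and 45.9% of all genes). Klf2 lacked it in -Dox even though its RNA was higher there. The covered part of the 2001-bp window at Egr1 was 1672 bp in +Dox and 202 bp in -Dox, and at Klf6 1698 and 1559 bp, in sets that covered 73.1 and 49.2 Mb of the genome in all. H3K27me3, the repressive Polycomb mark, lay at Egr2, Egr3, Klf2 and Klf4 in +Dox (20.9% of all genes), covering 807, 50, 282 and 803 bp, and at Egr2 and Klf4 in -Dox (19.2%), covering 204 and 415 bp. The last count depended on the window, with 0 members at 500 bp and 5 at 5000 bp on either side in -Dox. The share of all genes is given for 1000 bp only, so nothing is read from the counts at the other windows.

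The 250 bases upstream of the annotated start sites (NCBIM37, the mm9 build, GENCODE M1) were searched on both strands for sites of the factors named above. The core of the cyclic AMP response element, TGACG, occurred in 7 of 9 members, all but Egr3 and Klf6, and in 20.5% of 18857 promoters of the same length. The full palindrome TGACGTCA occurred in none of the members (2.08% of promoters). A CArG box, the SRF site, occurred in 2 members, with 2 in Egr1 and 1 in Egr2 (1.34% of promoters). The EGR site GCGNGGGCG occurred in Nr4a1, Nr4a2, Klf2 and Klf4 (6.86%), and the NR4A site AAAGGTCA in none (1.01%). The members' promoters were GC-rich, at 61.6% to 80% in the sequences read, against a median of 55.6% over all genes. The 5 upstream sequences below are examples of members that hold such matches; letters in capitals mark the matches (TGACG or its reverse complement, the CArG box in Egr2, and the EGR site), each sequence is 5′ to 3′ on the strand of its gene and ends at the base before the start site.
Egr2, chr10:67000367-67000616, + strand: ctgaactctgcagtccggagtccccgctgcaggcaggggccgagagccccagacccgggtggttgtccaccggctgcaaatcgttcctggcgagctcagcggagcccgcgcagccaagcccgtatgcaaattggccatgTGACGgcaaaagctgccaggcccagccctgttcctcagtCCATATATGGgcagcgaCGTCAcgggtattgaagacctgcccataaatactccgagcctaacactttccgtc
Nr4a1, chr15:101097027-101097276, + strand: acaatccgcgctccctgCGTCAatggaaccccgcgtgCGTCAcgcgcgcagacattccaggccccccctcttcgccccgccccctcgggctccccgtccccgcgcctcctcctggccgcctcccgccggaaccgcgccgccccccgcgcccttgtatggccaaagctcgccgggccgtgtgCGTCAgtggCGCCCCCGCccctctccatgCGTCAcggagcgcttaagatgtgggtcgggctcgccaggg
Nr4a2, chr2:56976415-56976664, - strand: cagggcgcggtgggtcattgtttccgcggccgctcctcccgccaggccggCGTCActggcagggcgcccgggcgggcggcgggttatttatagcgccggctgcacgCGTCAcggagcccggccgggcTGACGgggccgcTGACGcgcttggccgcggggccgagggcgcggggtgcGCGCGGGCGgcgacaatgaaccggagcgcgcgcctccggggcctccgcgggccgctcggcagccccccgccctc
Nr4a3, chr4:48057775-48058024, + strand: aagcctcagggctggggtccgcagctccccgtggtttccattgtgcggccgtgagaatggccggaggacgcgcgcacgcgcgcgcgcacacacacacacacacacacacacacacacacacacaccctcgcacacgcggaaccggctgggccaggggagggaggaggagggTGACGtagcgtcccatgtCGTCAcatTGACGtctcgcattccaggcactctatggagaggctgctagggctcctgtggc
Klf2, chr8:74842682-74842931, + strand: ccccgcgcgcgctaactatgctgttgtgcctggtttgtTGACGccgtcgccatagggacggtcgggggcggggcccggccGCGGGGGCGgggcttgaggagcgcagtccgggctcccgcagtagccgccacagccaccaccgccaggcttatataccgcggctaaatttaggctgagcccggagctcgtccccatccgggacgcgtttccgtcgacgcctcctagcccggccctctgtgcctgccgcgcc

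Nr4a1 and Nr4a2 each hold 4 copies of the TGACG core, Nr4a3 holds 3, Egr2 holds 2 and Klf2 holds 1. Nr4a1 and Nr4a2 also carry an EGR site each, as does Klf2. Such matches are a description of the letters and do not show binding.

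A Pax7 binding site lay nearby for 1 member, a share close to that of all genes. Of the 2455 sites deposited for +Dox cells, 1 lay within 50 kb of the start site of Nr4a2, where 10.2% of 18857 genes had a site so near. The closest sites to the other members were 84.5 kb (Egr1) to 849.8 kb (Klf2) away. The site at Nr4a2 (chr2:56968147-56968663) had its centre 8.01 kb downstream of the start site, in the first intron of the long transcripts (chr2:56965484-56976239) and 0.956 kb upstream of an alternative start site at position 56967449. Nr4a2 was the member with the largest fall in RNA on doxycycline withdrawal, as given above. The site was found in 1 list only, and a link between the site and the fall was not tested.

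An ATAC-seq interval lay over this site in 9 of 10 peak sets, all but the C2C12 myoblasts. The highest fold enrichment within the interval was 21.8 in +Dox, 2.92 at 12 h, 29.0 at 24 h, 39.5 at 3 days and 29.7 in satellite cells. The interval was narrow at 12 h, whereas at 3 days and in satellite cells it ran across several peaks that are separate in +Dox, so its highest summit need not lie at the site and the values do not form a series. Among Pax7 sites with a peak it stood above 53.7% in +Dox, 7.54% at 12 h, 82.2% at 24 h and 88.4% at 3 days, and 95.4% of all Pax7 sites had a peak in +Dox and 68% at 3 days. H3K4me3 and H3K4me1 lay over the site in both conditions, H3K27Ac in -Dox but not in +Dox (37.9% and 73.2% of Pax7 sites had it), and H3K27me3 in neither.

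**Figure D5:**
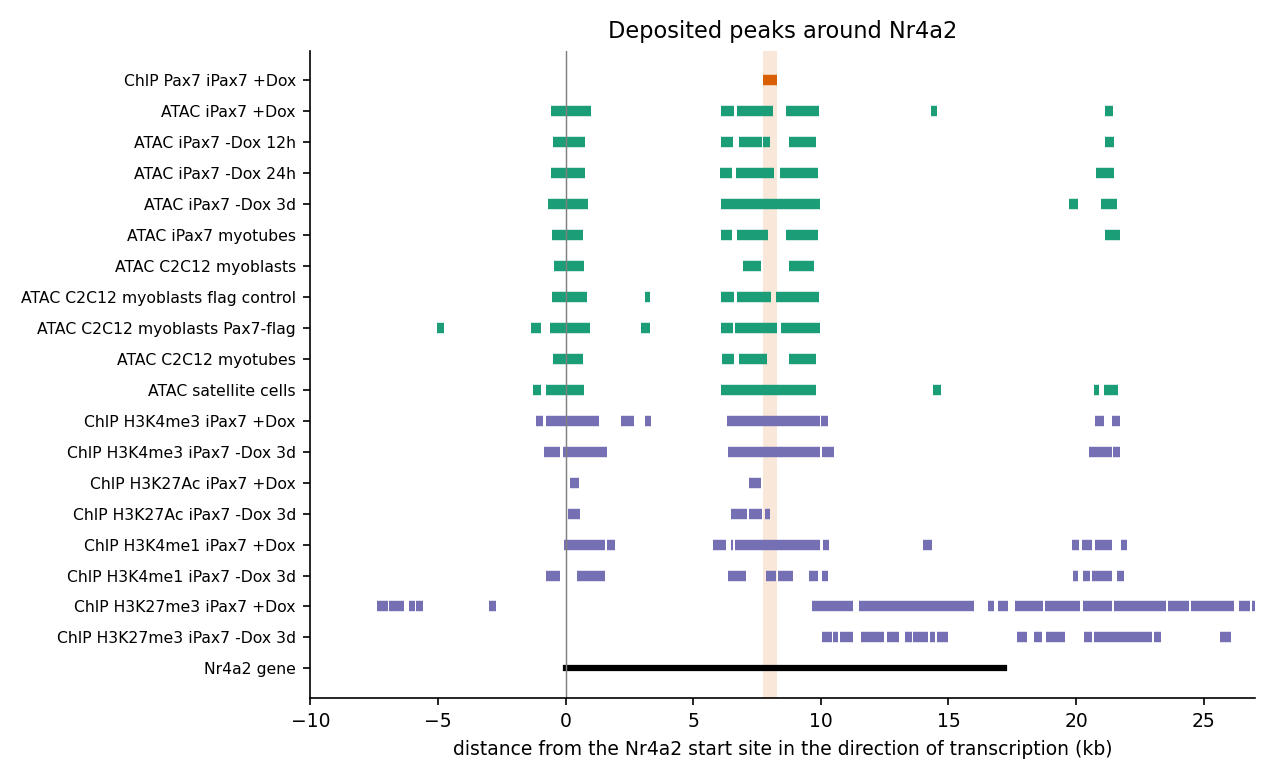
Map of the Nr4a2 locus by distance in kb from its start site, positive downstream, with the deposited ATAC-seq intervals, histone mark regions and the Pax7 site as bars in 1 row per set and the gene's extent. The Pax7 site at 8.01 kb is overlapped by an ATAC-seq interval in every ATAC-seq set but the C2C12 myoblasts.

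The central 300 bases of this site, shown because it is the only Pax7 site near a member, hold no TAAT, the core bound by homeodomains, which occurs in 82.8% of 2455 Pax7 sites at the same length (median 2 per site). Palindromes of TAAT and ATTA with a gap of 2 or 3 bases were absent too and occur in 1.02% and 1.71% of the sites. No letters are in capitals for that reason. Motifs of the paired domain, which the paper also found among its Pax7 sites, were not searched for. The bases of the site outside this stretch were not searched either.
Pax7 site in Nr4a2, chr2:56968255-56968554, + strand: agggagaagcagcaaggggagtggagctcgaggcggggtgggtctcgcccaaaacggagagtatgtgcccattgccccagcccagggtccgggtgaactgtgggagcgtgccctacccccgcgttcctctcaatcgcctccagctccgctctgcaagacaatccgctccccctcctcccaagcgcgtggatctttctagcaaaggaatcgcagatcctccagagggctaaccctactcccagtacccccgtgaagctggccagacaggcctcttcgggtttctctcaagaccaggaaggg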

How the data were processed

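RNA-seq gene tables were deposited as raw read counts per gene symbol in the form that HTSeq-count writes, 1 table per library. The submitters' processing notes name TopHat2 2.0, HTSeq 0.6 and mm9, with no role or strand setting given. ATAC-seq files hold the peaks that the authors called with MACS2 2.0.10 on merged replicates after Bowtie2 2.2.6 alignment, duplicate removal and a shift of read ends for the transposase, each with its fold enrichment (a ratio). Histone mark regions and Pax7 sites were deposited as intervals without values. Histone regions of C2C12 cells were not used here.

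Counts were fitted in edgeR 4.0.16 (R 4.3.3) over all 8 libraries and 3 groups, with TMM scaling, filterByExpr, which kept 14836 genes, and the quasi-likelihood test, adjusted by Benjamini-Hochberg. Lines that name no gene were left out. The fit was tested on simulated counts. SE was obtained as log2 fold change over root F. Peaks were matched to start sites of GENCODE M1 on NCBIM37 with a minimum overlap of 1 bp, and an interval with several summits took the highest. Alternatives were DESeq2 1.42.0, RLE scaling, other filters, the 2 groups alone, a block on the file's replicate number, leaving out each library, and other windows. The members and all gene lists were chosen with earlier results of these data known. Named genes were the members, Pax7, up to 3 called genes per list, comparison and direction with the largest change and 100 or more normalized counts on average, and the 10 genes most like the members.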

Additional observations from a re-analysis of the deposited data

How the results depend on the processing

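The satellite comparisons of the members kept their direction in every alternative (9 of 9 members in each, over 126 values per comparison), and 6 of 8 members did so between the iPax7 groups. The exceptions there were Egr2, at 0.171 without -Dox replicate 1 (range -1.443 to 0.171 over fits that leave out 1 library), and Klf6, at -0.329 with a replicate block and -0.311 to 0.449 when 1 library was left out. The number of genes called between -Dox and +Dox was 1134, but 2017 with DESeq2, 1950 with only those 2 groups fitted, 2608 with the replicate block and 488 to 1374 on leaving out 1 library. The labels give no replicate numbers, and libraries with the same file number did not deviate together, so the block pairs nothing known. Of the other immediate-early genes, 7 were called in that comparison, against 11 with DESeq2, 12 with the replicate block and 2 to 8 on leaving out 1 library. The median of the members ranged from -1.185 to -0.097, with the lower end without -Dox replicate 1. Genes called between -Dox and satellite cells ranged from 3204 to 5821 on leaving out 1 library, lowest without -Dox replicate 1. H3K27me3 in -Dox lay at 0 members within 500 bp, 2 within 1000 bp and 5 within 5000 bp, and 2 members had a Pax7 site within 100 kb against 1 within 50 kb. For these counts the share of all genes is given only at 1000 bp and 50 kb. Nr4a3 and Klf2 in +Dox and Nr4a2 in -Dox rest on 7 reads or fewer per group, which limits those ratios to their counting intervals.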

Other observations

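Inducible heat shock genes, another group of genes that answers a sudden stress, were read from the same fit. Of 12 tested, 9 were lower in each iPax7 group than in satellite cells (edgeR, with 23.9% and 20.4% of all genes lower) and none was called between the iPax7 groups. Bag3, a co-chaperone of HSP70, was at 2414 to 3903 normalized counts in +Dox, 3024 and 3182 in -Dox and 97149 to 163696 in satellite cells, a log2 fold change of -5.20 (SE 0.329) for +Dox against satellite cells. Bag3 was named after its values were seen. The inducible HSP70 genes Hspa1a and Hspa1b were close to undetected in iPax7 cells, Hspa1a at 6.01 to 36.4 in +Dox and 0.923 and 2.76 in -Dox, against 9740 to 106137 in satellite cells. Hspa1a and Hspa1b share nearly identical coding sequence, so the split of reads between them is uncertain. Dnajb1, an HSP40 co-chaperone, ranged from 24100 to 173922 in satellite cells, against 1210 to 1868 in +Dox. The mitochondrial chaperones Hspd1 and Hspe1 were not called, with log2 fold changes of 0.63 and 0.27 for +Dox against satellite cells.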
